A study of Mus musculus with 2 samples.

Results

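A set of 7 transcription factor genes of autonomic and neuroendocrine cells, namely Phox2a, Isl1, Hand2, Hand1, Insm1, Gata3 and Gata2, was followed in mouse ureters that lack Rbpj in their mesenchyme. The genes were taken by the name that the array files give their probes, which found all 7 with 8 probes, among 30011 gene names and 39429 probes. They had been picked with their ratios on these arrays already known, so their ratios are described here without a test. Ureters were dissected from NMRI embryos at E14.5, and each of 2 arrays held Rbpj-cKO and control RNA in a different dye. Rbpj-cKO embryos were Tbx18(cre/+);Rbpj(fl/fl), in which a Cre recombinase from the Tbx18 locus, active in the mesenchyme around the ureteric epithelium and carried on 1 Tbx18 allele, deletes a floxed Rbpj. Control embryos are labelled Rbpj(fl/?), that is, with a floxed allele and an unstated second allele, and no Cre is listed for them. Replicate 1 held male RNA with Rbpj-cKO in red (AlexaFluor647), and replicate 2 held female RNA with Rbpj-cKO in green (AlexaFluor555). Sex and dye orientation therefore changed together, and the labels do not state the number of embryos behind a channel. With 1 array per sex, any p-value measures only the spread between these 2 arrays.

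Sympathetic neurons, chromaffin cells and the neurons of pelvic ganglia come from the neural crest, and a small network of transcription factors sets their identity. The homeodomain factor Phox2a acts early in it. Hand2, Gata2, Gata3, Isl1 and Insm1 act with it or after it to switch on pan-neuronal genes and the enzymes of noradrenaline synthesis. Several of these factors also work elsewhere in the urogenital tract. Gata3 is a regulator of the nephric duct and the urothelium, Gata2 of blood progenitors and endothelium, and Hand1 and Hand2 of heart, limb and visceral mesenchyme.

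Each value rests on a probe of 60 bases printed 4 times per array. The 5′-most 30 bases of every probe are shown because they identify the transcript that was measured, with coordinates of those 30 bases on mm9, as in the array files, and capitals for the polyadenylation signal AATAAA.
Phox2a (chr7:108971127-108971156, + strand): gtcggggaacggaacaaaatggttttcctt
Isl1 (chr13:117088804-117088833, - strand): cccccaaagatgtgtatagttattggttaa
Hand2 (chr8:59803220-59803249, + strand): gtgcgcttccgtcctctaaaactaagtgga
Hand1 (chr11:57642372-57642401, - strand): aAATAAAagcgttcccattcgttgctgaat
Hand1, other probe (chr11:57646287-57646316, - strand): tttacaccgaaccaggcgcctgagaggcta
Insm1 (chr2:146050603-146050632, + strand): gcccttgtacaaccgacagctcttactttt
Gata3 (chr2:9779581-9779610, - strand): ttaaggaatatagggggattaaagtatgga
Gata2 (chr6:88156362-88156391, + strand): aactgcataagcttaacccgctgatgagtg
Of these, only the first Hand1 probe held AATAAA in the stretch shown. Whether a probe lies in coding sequence or a UTR was not analysed here. The Hand1 probes span 3975 bases on mm9, more than the 3435 bases of the Hand1 gene in RefSeq on GRCm38. The second of them, designed on a separate predicted transcript, was well above background on 0 of 4 spots in every channel and gives no ratio. The other 7 probes were well above background on 4 of 4 spots in all 4 channels, so each of the 7 genes was measured by 1 probe.

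The arrays themselves set limits that touch every value below. Between 67.7% and 70.1% of spots were well above background in a channel, and 26980 probes, or 20495 genes, were measured. Rbpj, the targeted gene, was the lower in Rbpj-cKO on each array, with log2 ratios of -1.13 and -0.63 by its brighter probe and of -0.48 and -0.37 by the other. Their place in relation to the floxed exons was not analysed here. Tbx18 and the urothelial gene Upk3a were well above the measurement floor in all channels, as a ureter should show. The Y-linked genes Ddx3y and Eif2s3y reached 8.04% and 8.89% of the male Rbpj-cKO signal in the library labelled female Rbpj-cKO, at signals of 123 and 218. They were at 2.12 and 13.6 in female control. Across genes the ratios of the arrays ran against each other (Pearson's r = -0.352, Spearman's rho = -0.473), and every ratio is therefore given for each array on its own. In limma 0 of 20495 genes (0%) passed an adjusted p under 0.05, the smallest adjusted p being 0.254, and 372 genes had an unadjusted p under 0.05. As a description with no p, 27 genes (0.132%) were at least 1.5-fold higher in Rbpj-cKO on both arrays, that is, at a log2 ratio of 0.585 or more, and 13 genes (0.0634%) were that much lower.

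Of the 7 factors, 4 were higher in Rbpj-cKO on both arrays (Phox2a, Hand2, Insm1 and Hand1), beside 16.1% of all genes measured. Isl1 and Gata3 had opposite signs on the arrays, as did 69.2% of all genes, and Gata2 lay near 0. Phox2a and Insm1 were at least 1.5-fold higher on both arrays, and none of the 7 was that much lower. On replicate 1 alone 3 of the 7 were at least 1.5-fold higher (1.4% of all genes), and on replicate 2 alone 4 of the 7 (1.11% of all genes). These shares were fixed by the choice of the genes and are given as a description. The 7 had a median log2 ratio of 0.55 on replicate 1 and 1.19 on replicate 2, where all genes had medians of 0.0012 and 0.0046. In bulk RNA of a whole ureter, a change in the number of cells of a type and a change in RNA per cell cannot be told apart.

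**Figure D1:**
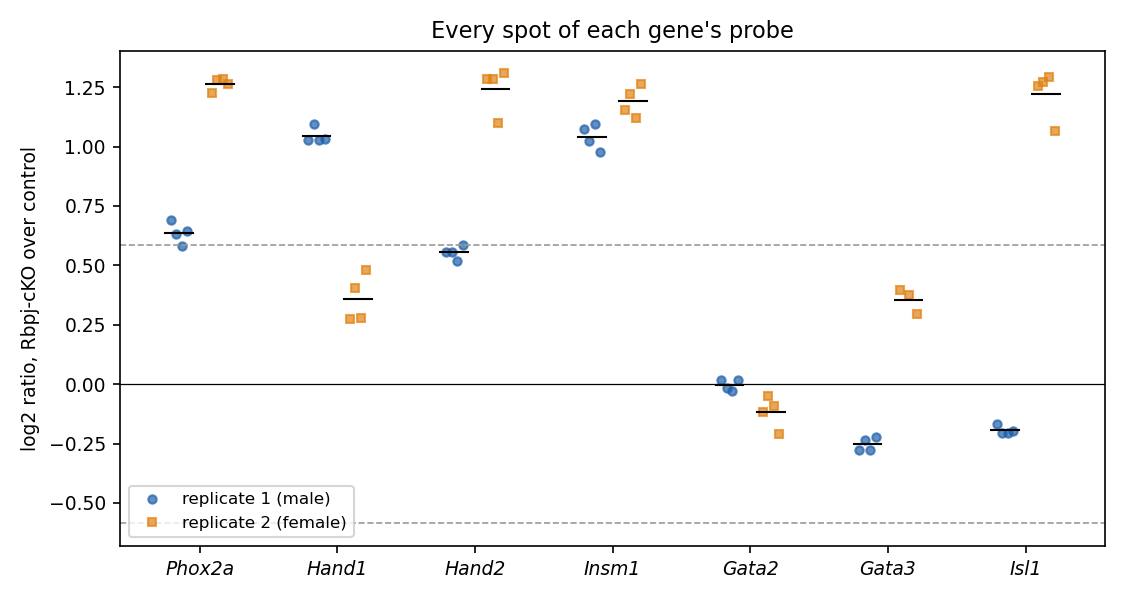
Each point is the log2 ratio of Rbpj-cKO over control at 1 spot of a gene's probe, circles for replicate 1 (male) and squares for replicate 2 (female), with the mean as a black bar and the 1.5-fold bounds as dashed lines. Spots of an array lie close together, while the arrays of Isl1, Hand1, Phox2a and Hand2 lie far apart and those of Insm1 side by side.

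Phox2a, a homeodomain factor that activates the dopamine beta-hydroxylase gene Dbh in noradrenergic cells, had the highest signals of its probe in the Rbpj-cKO channels. Its processed signal was 2305 ± 120.3 (SD of 4 spots) in male Rbpj-cKO against 1475 ± 116 in male control. In females it was 1812 ± 99.98 in Rbpj-cKO against 745 ± 39.8 in control. Both Rbpj-cKO channels were thus above both control channels, and female control was lowest. The log2 ratios were 0.64 on replicate 1 and 1.26 on replicate 2, a mean of 0.95 ± 0.44 (SD, n = 2 arrays), or 1.56-fold and 2.40-fold. The lowest and highest spot were 0.58 and 0.69 on replicate 1 and 1.23 and 1.28 on replicate 2, so the arrays differed by more than their spots did. By mean ratio Phox2a stood at rank 28 of the 20495 genes.

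Isl1, a LIM-homeodomain factor of sympathetic, pelvic and sensory neurons, went opposite ways. In males its processed signal was 429 ± 13.9 in Rbpj-cKO and 499.6 ± 13.3 in control. In females it was 797 ± 20.9 in Rbpj-cKO and 325 ± 17.3 in control. Female Rbpj-cKO was the highest and female control the lowest of the 4 channels, with the male channels between them. Rbpj-cKO over control came to a log2 ratio of -0.19 for the male array and 1.22 for the female array, that is, 1.14-fold lower and 2.33-fold higher. Their mean of 0.51 (SD 1.0004, n = 2) was smaller than its SD. All 4 spots were below 0 on replicate 1, from -0.21 to -0.17, and all 4 were above 1 on replicate 2, from 1.06 to 1.29. Over the 9 settings that keep the labelled dye orientation, the ratio of Isl1 ran from -0.22 to -0.04 on replicate 1. On replicate 2 it ran from 1.04 to 1.30. Some of these settings could not change the ratio of a gene with 1 probe and no flagged spot. All of them used the same 2 arrays.

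Hand2, a bHLH factor needed for the noradrenergic traits of sympathetic neurons, followed Phox2a closely. Its processed signal was 636 ± 28.1 in male Rbpj-cKO and 429 ± 21.7 in male control. It was 575 ± 32.1 in female Rbpj-cKO and 226 ± 14.1 in female control. The Rbpj-cKO channels were again above both control channels, and female control was lowest. The log2 ratios were 0.55 and 1.24, with a mean of 0.90 ± 0.49 (SD, n = 2), or 1.47-fold and 2.37-fold. The value of replicate 1 fell just short of the 1.5-fold bound. Median centring gave 0.71 there, but it also put the median of all genes at 0.12 on that array.

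Hand2os1, a long non-coding RNA gene on the opposite strand just upstream of Hand2, was measured by a probe of its own (mm9 chromosome 8, 59785891 to 59785950), matched by its RefSeq accession. In the RefSeq table on GRCm38, 123 bases separate the genes. The processed signal of Hand2os1 was 504 against 325 in males and 416 against 152 in females, Rbpj-cKO first. Its log2 ratios were 0.63 and 1.30, a mean of 0.96 ± 0.47 (SD, n = 2). Neighbouring transcripts of this locus thus had like ratios on each array.

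Hand1, the paralog of Hand2, known from heart, placenta and also sympathetic precursors, was dimmest in the female channels. Its processed signal was 238 ± 13.7 in male Rbpj-cKO and 104 ± 7.06 in male control. In females it was 54.5 ± 4.07 in Rbpj-cKO and 37.6 ± 3.53 in control. Both male channels were above both female channels, so that the groups overlapped across arrays, while Rbpj-cKO was the higher channel on each. The log2 ratios were 1.05 and 0.36, a mean of 0.70 ± 0.48 (SD, n = 2). The added offset of 50 draws ratios of dim spots towards 0. In the scanner software's own ratios Hand1 had 1.19 and 0.54, and in the authors' deposited table it was 2.30-fold and 1.51-fold higher. Hand1 had the larger ratio on the male array and Hand2 on the female one.

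Insm1, a zinc-finger factor of developing endocrine and chromaffin cells, differed least between the arrays among the genes that were higher. Its processed signal was 815 ± 78.4 in male Rbpj-cKO and 388 ± 36.3 in male control. It was 489 ± 32.5 in female Rbpj-cKO and 200.3 ± 17.9 in female control. The Rbpj-cKO channels were above the control channels, with female control lowest. The log2 ratios were 1.04 and 1.19, or 2.06-fold and 2.28-fold, with a mean of 1.12 ± 0.10 (SD, n = 2) at rank 17 of the 20495 genes. Spots ranged from 0.98 to 1.09 and from 1.12 to 1.26, so their ranges did not overlap but lay next to each other.

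**Figure D2:**
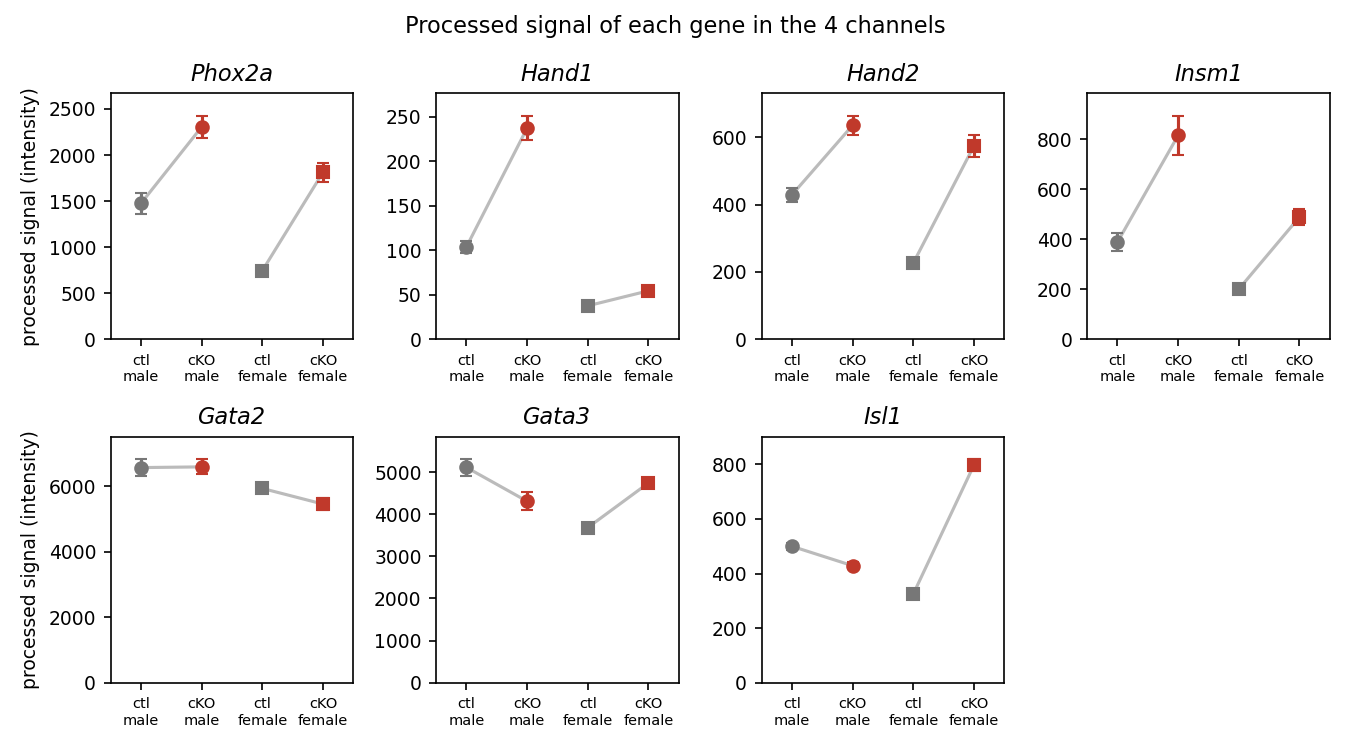
The processed signal of each gene's probe (linear intensity, axis from 0) is plotted in the 4 channels, control in grey and Rbpj-cKO in red, circles for the male and squares for the female array, with lines joining the channels of an array and bars for the SD of the spots. Phox2a, Hand2 and Insm1 have both Rbpj-cKO points above both control points, while Isl1 and Gata3 slope down in males and up in females.

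Gata3 and Gata2, zinc-finger factors with roles in sympathetic neurons and in other cells of the ureter, were not higher on both arrays. Gata3 had the same order of signs as Isl1. The processed signal of Gata3 was 4305 ± 215 in male Rbpj-cKO and 5109 ± 192 in male control. In females the order was turned, with 4740.1 ± 72.4 in Rbpj-cKO and 3681 ± 86.0 in control, over 3 spots for the ratio after 1 flagged spot was left out. Its log2 ratios of -0.25 and 0.36 gave a mean of 0.05 ± 0.43 (SD, n = 2), at rank 4804 of the 20495 genes. With median centring in place of loess they were -0.05 and 0.13. That setting put the median of all genes at 0.12 on replicate 1 and at -0.13 on replicate 2.

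Gata2 was nearly level in all channels. Its processed signal was 6589 ± 228 in male Rbpj-cKO and 6568 ± 252 in male control, a difference smaller than the SD of the spots. It was 5454 ± 170.2 in female Rbpj-cKO and 5932 ± 82.9 in female control. The log2 ratios were -0.0027 and -0.12, a mean of -0.06 ± 0.08 (SD, n = 2). The value of replicate 1 was above 0 in the scanner software's ratio (0.0049) and with median centring (0.23), so Gata2 has no settled sign there.

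Log2 intensities of the channels were also compared across the arrays on a common scale that kept the ratio within each array. On that scale both Rbpj-cKO channels stood above both control channels for Phox2a, Hand2 and Insm1. The gap between the lower Rbpj-cKO and the higher control channel was 0.49, 0.55 and 0.53 on the log2 scale. Of all genes measured, 10.4% had such a gap and 8.44% had the opposite order, without regard to its size. Gata2 had that opposite order by a narrow margin, at 14.2466 and 14.1731 in Rbpj-cKO and 14.2493 and 14.2913 in control, and Hand1, Isl1 and Gata3 had overlapping channels.

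The promoter windows of Phox2a, Hand2 and Isl1 are printed to set the pair with like ratios beside the gene that went opposite ways. They run from 250 bases before to 30 bases after the start site in RefSeq, build GRCm38.p6, and 6 windows of 300 bases were found for 5 of the genes. Capitals mark matches on either strand to TGGGAA, the core of the site that RBPJ binds, to TAATTA, a homeodomain core, and to AGATAA or TGATAA, which GATA factors bind.
Phox2a (chr7:101818063-101818342, + strand): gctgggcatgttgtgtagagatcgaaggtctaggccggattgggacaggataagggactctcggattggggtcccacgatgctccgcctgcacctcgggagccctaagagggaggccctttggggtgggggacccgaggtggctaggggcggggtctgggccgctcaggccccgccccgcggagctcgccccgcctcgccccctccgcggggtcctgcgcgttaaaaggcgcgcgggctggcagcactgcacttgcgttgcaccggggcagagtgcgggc
Hand2 (chr8:57320733-57321012, + strand): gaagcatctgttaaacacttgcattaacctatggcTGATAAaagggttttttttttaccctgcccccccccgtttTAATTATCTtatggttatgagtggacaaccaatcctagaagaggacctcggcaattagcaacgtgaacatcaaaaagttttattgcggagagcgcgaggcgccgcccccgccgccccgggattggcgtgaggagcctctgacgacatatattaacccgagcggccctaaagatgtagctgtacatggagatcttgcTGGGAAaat
Isl1 (chr13:116309659-116309938, - strand): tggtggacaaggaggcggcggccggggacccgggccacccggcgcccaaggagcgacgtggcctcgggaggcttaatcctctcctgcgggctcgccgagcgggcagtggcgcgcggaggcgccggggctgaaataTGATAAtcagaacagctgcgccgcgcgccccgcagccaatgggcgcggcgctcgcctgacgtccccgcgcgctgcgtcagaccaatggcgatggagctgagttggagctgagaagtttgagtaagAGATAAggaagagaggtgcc

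Of the 6 windows only that of Hand2 held TGGGAA, 22 bases into the transcript, a match that 25.6% of 32851 windows in the table also hold. The Hand2 window further held TAATTA (5.29% of all windows), overlapped at its end by AGATAA on the other strand (11.2%), and TGATAA (9.05%). The Isl1 window held TGATAA and AGATAA, and that of Phox2a none of these letters. The 5 windows other than Hand2's were rich in G and C, from 67.3% to 73.7%, where the median window has 52.7% and Hand2's has 50.3%. A match of letters does not show that a factor binds there.

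The nearest patterns to each factor were sought over the 2 arrays by the distance between pairs of log2 ratios. For Phox2a the closest genes were Hand2os1 at a distance of 0.036, Hand2 at 0.085 and the Notch target Hey1 at 0.20 (0.81 and 1.36). For Insm1 the closest gene with a usual name was the phosphatase gene Dusp26 at 0.14 (0.98 and 1.07). The search was extended to further factors after their values were seen. For Isl1 the nearest were the neuropeptide genes Nts at 0.053 (-0.15 and 1.25) and Cck at 0.12 (-0.21 and 1.11). For Hand1 they were P2ry12 at 0.038, Ndufa4l2 at 0.11 and C1qtnf7 at 0.11, the last with ratios of 0.45 and 0.016 by its other probe. With 2 arrays such likeness is a description only.

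**Figure D3:**
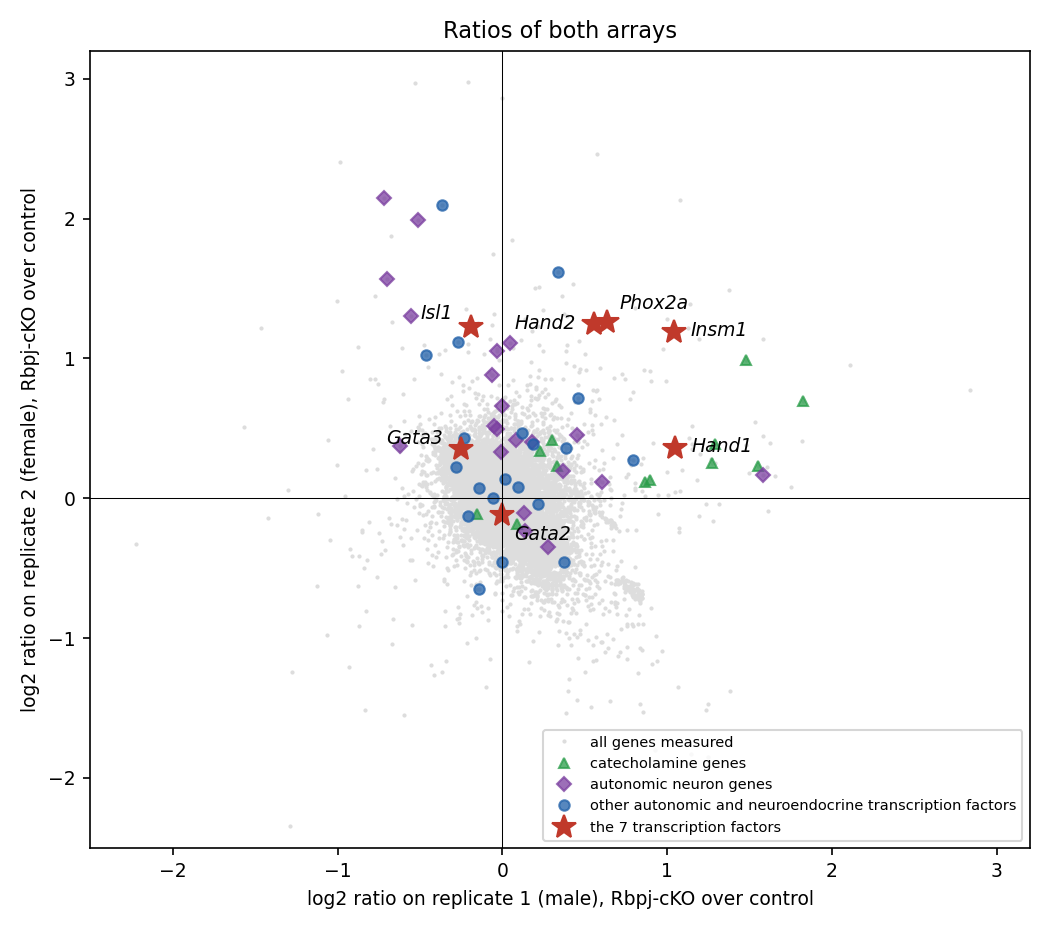
The log2 ratio on replicate 1 (x axis) is plotted against that on replicate 2 (y axis) for all genes measured in grey, except 1 gene outside the axes, with the 7 factors as stars and 3 gene lists as coloured symbols. Catecholamine genes spread to the right, at 0.88 on replicate 1 by their median, and autonomic neuron genes spread upward, at 0.45 on replicate 2 by theirs.

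Other transcription factors of autonomic and neuroendocrine cells were set beside the 7. Of 25 such genes 20 were measured, and 0 passed the test over all genes. Of the 20, 8 were higher in Rbpj-cKO on each array, 3 were lower on each and 9 differed in sign. Over all genes measured, the shares were 16.1%, 14.7% and 69.2%. Insm2, the paralog of Insm1, had 0.46 and 0.72, and the zinc-finger gene St18 had 0.79 and 0.27 at signals of 6.45 to 31.4. The early B-cell factor gene Ebf1, which mesenchyme expresses too, had -0.14 and -0.65. The list's median was 0.0059 on replicate 1 and 0.25 on replicate 2, and 13 of 20 genes had the larger ratio on replicate 2, as had 10297 of 20495 genes overall. Among those with opposite signs, chosen after their values were seen, Tlx2, a homeobox gene of enteric and autonomic neurons, had -0.37 and 2.10. The homeobox gene Hmx1 (-0.46 and 1.02) had the same order of signs, which was also that of Isl1. Nhlh1 (0.37 and -0.45) and Prox1 (0.22 and -0.04) had the reverse order. Myt1, Neurod1, Neurod4, Nhlh2 and Tlx3 were not well above background on enough spots to be measured.

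Genes that mark what autonomic cells make were described in the same way. Of 12 catecholamine genes measured, 10 were higher and 1 lower on both arrays, beside 16.1% and 14.7% of all genes. At least 1.5-fold higher on both were 2 of them (0.132% of all genes), and 0 passed the test over all genes. With median centring 8 were higher on both in place of 10. The list's medians on the log2 scale were 0.88 and 0.24, and 9 of 12 had the larger ratio on replicate 1, against 10198 of 20495 genes overall. Dbh, which makes noradrenaline from dopamine, had 1.83 and 0.70. Th, the first enzyme of the pathway, had 1.55 and 0.23. The vesicular transporter genes Slc18a1 and Slc18a2 had 1.48 and 0.99, and 1.29 and 0.39. Pnmt, which makes adrenaline in chromaffin cells, had -0.15 and -0.11 at signals of 14.52 to 19.6. The summed processed signal of the list was 26326 against 14848 in males and 12448 against 11522 in females, Rbpj-cKO first.

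Of 18 genes of granins and secretory granules, 14 were higher and 2 lower on both arrays, beside 16.1% and 14.7% of all genes. At least 1.5-fold higher on both were 4 of them (0.132% of all genes). With median centring 11 were higher on both in place of 14. The list had medians of 0.45 and 0.48, and 0 genes passed the test over all genes. Chgb and Chga had 2.83 and 0.77, and 2.11 and 0.95. The granule protein gene Resp18 had 1.19 and 1.14, close to the values of Insm1, and Scg5, a chaperone of prohormone processing, had 0.39 and 1.30. The summed signal was 42157 against 23373 in males and 18612 against 16489 in females, Rbpj-cKO first.

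Of the autonomic neuron genes, 14 had the larger ratio on replicate 2, as Isl1 had, and 7 on replicate 1, as Th had. Over all 20495 genes these counts were 10297 and 10198. Of 21 measured, 7 were higher on each array, 0 were lower on each and 14 differed in sign. Over all genes measured, the shares were 16.1%, 14.7% and 69.2%. Of the 14, 2 were at least 1.5-fold each way (0.717% of all genes), and 0 of the 21 passed the test over all genes. The list had medians of -0.0040 and 0.45. Median centring gave 12 genes higher on both arrays in place of 7. Npy, a peptide of sympathetic neurons, had 1.58 and 0.17, whereas the neuronal RNA-binding protein gene Elavl3 had 0.05 and 1.11. The microtubule gene Stmn2 had 0.45 on each array. Named after their values were seen, Slc18a3, the vesicular acetylcholine transporter of cholinergic neurons, had -0.72 and 2.15. The GDNF receptor gene Ret had -0.51 and 1.99, and the peripheral neurofilament gene Prph -0.70 and 1.57. Uchl1 (0.28 and -0.35), Gfra2 (0.14 and -0.23) and Gal (0.13 and -0.11) had the reverse order of signs. The summed signal of the list was 16328 against 15916 in males and 15101 against 11758 in females, Rbpj-cKO first.

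Of 12 glial genes measured, 6 were higher and 0 lower on each array, beside 16.1% and 14.7% of all genes. The list had medians of 0.058 and 0.11, with 0 genes past the test. Fabp7, a lipid-binding protein of glial precursors, had 0.63 and 0.58, and the neural crest factor gene Sox10 had 0.20 and 0.38. Foxd3, a forkhead factor gene of the neural crest, had 0.02 and 0.51. With median centring 3 of the glial genes were higher on both arrays in place of 6. Their summed signal was 35308 against 34730 in males and 31150 against 27498 in females, Rbpj-cKO first.

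**Figure D4:**
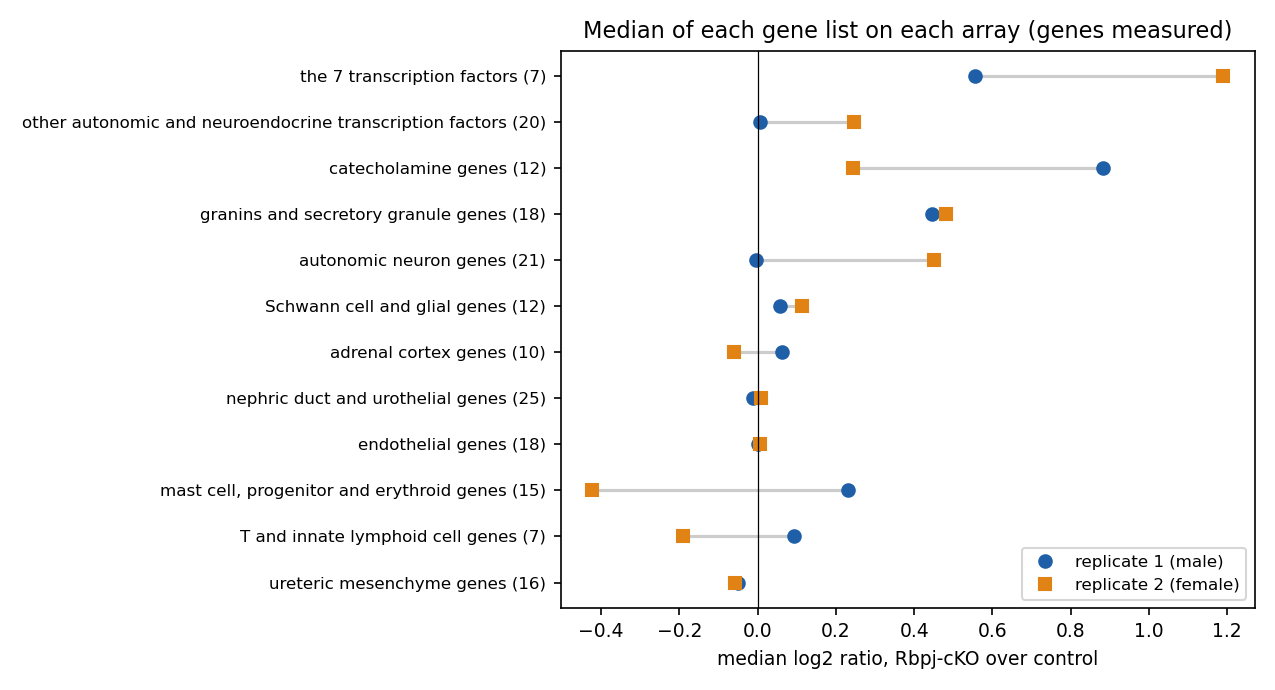
The median log2 ratio of Rbpj-cKO over control is plotted for the 7 factors and for each gene list, circles for replicate 1 (male) and squares for replicate 2 (female), with the number of genes measured in brackets. The catecholamine genes have the higher median on replicate 1, at 0.88, and the 7 factors, the other factors and the neuron genes on replicate 2.

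Markers of other cells in which some of these factors work were counted beside them, and 0 genes of these lists passed the test over all genes. Of 25 nephric duct and urothelial genes, cells that express Gata3, 6 were higher and 6 lower on each array, beside 16.1% and 14.7% of all genes. Their medians were -0.011 and 0.0086. With median centring 2 were higher on both in place of 6. The basal keratin gene Krt5 had -0.36 and -1.25, the forkhead gene Foxa1 -0.35 and -0.02, the homeobox gene Emx2 0.24 and 0.10, and the uroplakin gene Upk1a -0.16 on each array. The list's summed signal was 52723 against 53493 in males and 45809.8 against 47411 in females, Rbpj-cKO first.

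Of 18 endothelial genes, cells that express Gata2, 4 were higher and 4 lower on each array, beside 16.1% and 14.7% of all genes. Their medians were 0.00070 and 0.0071. With median centring 2 were higher on both in place of 4. The angiopoietin receptor gene Tek had -0.14 and -0.39, Tal1 -0.0027 and -0.30, Fli1 -0.12 and -0.08, and Emcn 0.11 and 0.09. The list's summed signal was 31078 against 30227 in males and 26172 against 25773 in females, Rbpj-cKO first. Endothelial and urothelial medians thus lay near 0. Gata2 did so too, while Gata3 had -0.25 and 0.36.

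Mast cell, progenitor and erythroid genes, where Gata2 also acts, moved with the arrays. Of 15 measured, 1 was higher and 3 lower on both, and 11 differed in sign, beside 16.1%, 14.7% and 69.2% of all genes. The larger ratio was on replicate 1 for 14 of the 15, and the list had medians of 0.23 and -0.42. Named after their values were seen, the globin genes Hbb-y and Hba-x had 0.76 and -1.06, and 0.60 and -1.03. In Rbpj-cKO, Hbb-y alone had signals of 73498 in males and 34174 in females. Klf1, a regulator of globin genes, had the same sign on both arrays, at -0.40 and -0.42. So had Kit (-0.17 and -0.35), Cpa3 (0.27 and 0.03) and Tfrc (-0.07 on each array). Other probes of Tfrc gave -0.26 and 0.17, and 0.17 and 0.52. The summed signal was 122664 against 86415 in males and 52455 against 96932 in females, Rbpj-cKO first. The mast cell genes Cma1 and Fcer1a were well above background on 0 spots.

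Of 7 T and innate lymphoid cell genes, which can express Gata3, 1 was higher and 1 lower on both, beside 16.1% and 14.7% of all genes. The list had medians of 0.094 and -0.19, and 0 of its genes were higher on both with median centring. Thy1, which neurons also express, had 0.48 and 0.04, and Bcl11b -0.10 and -0.51. The list's summed signal was 18747 against 20230.0 in males and 17051 against 16547 in females, Rbpj-cKO first. Cd3g and Cd8a were well above background on at most 1 of 4 spots in a channel.

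Adrenal cortex genes were counted because the adrenal gland holds chromaffin cells. Of 10 measured, 2 were higher, 1 lower and 7 opposite, beside 16.1%, 14.7% and 69.2% of all genes. The list had medians of 0.064 and -0.061. Mc2r had 0.28 and 0.06, Hsd3b1 -0.07 and -0.22, and Scarb1 0.10 and 0.07, the last with 0.18 and -0.43 by its other probe. The list's summed signal was 9233 against 8749 in males and 6753 against 6929 in females, Rbpj-cKO first. The steroidogenic genes Star and Cyp11a1 had signals of 15.1 to 21.5 and of 15.5 to 24.5, and Cyp11b1 was well above background on 0 spots. In contrast Cyp17a1, a steroid hydroxylase gene, reached 2378 against 1956 in males and 1043 against 1211 in females, Rbpj-cKO first. Nr5a1, the steroidogenic factor gene, had signals of 86.0 to 104. With median centring, or with the mean over a gene's probes, 1 adrenal cortex gene was higher on both arrays in place of 2.

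Of 16 genes of the ureteric mesenchyme, in which the Cre acts, 2 were higher and 4 lower on each array, beside 16.1% and 14.7% of all genes. Their medians were -0.051 and -0.058. The smooth muscle coactivator gene Myocd had -0.67 and -1.04, Foxf1 -0.19 and -0.21, Tbx2 0.17 and 0.52, and Bmp4 0.27 and 0.06. The list's summed signal was 75416 against 69776 in males and 60597 against 63136 in females, Rbpj-cKO first. What part nerve, ganglion, adrenal or blood cells dissected with the ureters had in the ratios of the 7 factors was not tested.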

How the data were processed

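RNA of 2 two-colour Agilent arrays was analysed, with 150 ng input RNA per labelling, per the labels' protocols. The authors deposited, per spot, the mean and the local background intensity of each channel, linear and not normalized, per the file headers. The processed intensity ("processed signal") is the scanner software's background-subtracted, detrended and dye-normalized value, again per the file headers. Its log10 ratio of red over green was deposited too, with flags coded as other values of 0 or 1. The submitters' processing notes name Agilent Feature Extraction (10.7.3.1). The authors' deposited series table was read as a score, a signed fold, linear, with Rbpj-cKO above control as positive. It has no value between -1 and 1, a median of 1 in each column, and a correlation with the processed log2 ratios of 0.782 and 0.849. Its normalization is not stated in the sources used.

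Background was corrected by normexp (offset 50), log2 ratios were normalized within arrays by loess without control spots, flagged outlier spots (3.57% and 3.9%) were left out, and the spots of a probe were averaged (limma 3.58.1, R 4.3.3). Ratios of replicate 2 were turned by the labelled dyes. Probes needed 2 of 4 spots well above background in a channel on each array, and the brightest probe stood for a gene. Names came from RefSeq by accession for 28328 probes, and otherwise from the file. Genes were tested with lmFit and eBayes (two-sided, Benjamini-Hochberg). Spot averaging and the gene test were tried on simulated log2 ratios with independent arrays. Background correction, loess, the dye turn and the probe filter were not part of that trial. The number of arrays limits the precision.

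The 7 factors and the gene lists were chosen with earlier results of these data known. Named genes are the 7 factors and, from each list, up to 4 genes with the largest mean ratio of the same sign on both arrays; some of these are not reported here. Further genes are given as chosen after their values were seen. Alternatives are listed under the dependence on processing.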

Additional observations from a re-analysis of the deposited data

Results flagged for a closer look

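These results differed in sign between male and female pairs. With 1 array per sex, and dye orientation changing with sex, the differences were not tested, and 69.2% of all genes had opposite signs.

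The log2 ratio of replicate 1 minus that of replicate 2 was -1.41 for Isl1 and -0.61 for Gata3, both higher in the female pair. For Tbx18, whose locus carries the Cre, it was 0.41, from 0.17 and -0.24.

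For the medians of gene lists the same difference was -0.45 for autonomic neuron genes and -0.019 for nephric duct and urothelial genes. It was 0.12 for adrenal cortex genes, 0.28 for T and innate lymphoid cell genes, and 0.65 for mast cell, progenitor and erythroid genes.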

How the results depend on the processing

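The count of the 7 factors at least 1.5-fold higher on both arrays was 2. It ran from 2 to 3 under the alternatives that keep both arrays and the labelled dyes. The added gene was Hand1 in the authors' deposited table and Hand2 with median centring. That centring put the median of all genes at 0.12 on replicate 1. On a single array, leaving out the other, the count was 3 to 4. With replicate 2 not turned, 0 of the 7 were at least 1.5-fold higher and 0 were higher on both arrays, against 4 as labelled. With the dyes as labelled, the mean ratio of each factor moved by less than the SD between arrays. Over all genes, 27 were at least 1.5-fold higher and 13 lower. These counts became 60 and 28 with the deposited processed signals, 59 and 26 in the authors' deposited table, 228 to 286 and 73 to 386 on single arrays, and the higher count 43 without the normexp offset and 129 with replicate 2 not turned. Median centring changed the number of genes higher on both arrays by over 1.5 times in 6 of the gene lists, for instance from 6 to 2 for nephric duct and urothelial genes and from 4 to 2 for endothelial genes. In limma 0 genes passed an adjusted p under 0.05, against 2 with the deposited processed signals and 5 with an intensity trend and robust moderation. With no replicate block, that is, 2 Rbpj-cKO against 2 control channels without the pairing on an array, 0 genes passed, with 417 at an unadjusted p under 0.05. Leaving out an array leaves no test. The causes of these differences were not tested. Dim probes, such as that of Hand1, have ratios drawn towards 0 by the offset.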
